A study of Mus musculus with 6 samples.

Results

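The Hippo pathway genes described here were 10 genes of the count table, chosen by symbol: the coactivators Yap1 and Wwtr1 (which encodes TAZ), the TEAD transcription factors Tead1, Tead2, Tead3 and Tead4, the kinases Lats1 and Lats2, and the regulators Ajuba and Amotl2. The table held 57010 genes, of which 18114 had enough counts to be tested, and all 10 Hippo genes were among those tested. RNA was sequenced from monocytes of C57BL/6 mice (C57Bl/6J in the study's methods) 1 year old, enriched with a magnetic kit from the bone marrow of the femur (libraries S13, S15 and S18) or of the mandible (S16, S19 and S23). The labels name no transgene or treatment and give neither the sex nor the animal of a library, and the study used mice of both sexes. The enrichment removes cells by antibodies against other blood cells, so cells that carry none of those antigens can remain. The question was how the 2 marrow sites differed in the messenger RNA of the pathway's effectors and kinases.

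In the Hippo pathway, the kinases LATS1 and LATS2 phosphorylate YAP and TAZ, which are then held in the cytoplasm or degraded. When the kinases are inactive, YAP and TAZ enter the nucleus and bind TEAD proteins, which carry the DNA-binding domain that the coactivators lack. YAP and TAZ respond to cell contact, stretch and the stiffness of the matrix and are best known from epithelial, mesenchymal and endothelial cells, and in bone TAZ is also known as a partner of RUNX2. The activity of the pathway is set largely by phosphorylation, which counts of RNA do not measure.

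TEAD proteins bind the motif CATTCC, read as GGAATG on the other strand, and the promoters of the members that hold it are shown to let the reader see where it lies beside genes whose counts are given below. Both strands were searched as 1 motif in the 250 bases before each RefSeq transcription start (build GRCm38.p6), and 12.6% of 32851 promoters held it, or 14.4% of 27025 genes in at least 1 promoter. RefSeq promoters were matched for 8 of the 10 members, not for Tead1 and Tead4, and the motif was found upstream of Yap1, Wwtr1, Tead3, Ajuba and Amotl2, or 5 of these 8, and not upstream of Tead2, Lats1 and Lats2. In the sequences that follow, written 5′ to 3′ on the gene's strand and ending at the last base before the start, capitals mark the motif. Yap1 (chr9:8004597-8004846, minus strand) and Wwtr1 (chr3:57575911-57576160, minus strand, the upstream one of 2 start sites) each held it once, first base at -141 and -136.
Yap1: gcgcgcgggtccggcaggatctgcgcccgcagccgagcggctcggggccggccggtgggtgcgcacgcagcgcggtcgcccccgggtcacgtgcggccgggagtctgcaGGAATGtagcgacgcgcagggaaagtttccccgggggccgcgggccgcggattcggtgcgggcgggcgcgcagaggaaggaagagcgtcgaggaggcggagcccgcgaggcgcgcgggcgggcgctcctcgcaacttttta
Wwtr1: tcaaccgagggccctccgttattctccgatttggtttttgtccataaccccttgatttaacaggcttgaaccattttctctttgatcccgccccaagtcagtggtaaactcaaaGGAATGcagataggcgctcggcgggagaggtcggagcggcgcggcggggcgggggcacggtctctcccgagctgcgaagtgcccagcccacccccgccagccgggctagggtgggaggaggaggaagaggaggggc
Ajuba (chr14:54577662-54577911, minus strand) held it 2 times, with the first bases at -186 and -164 and so 22 bases apart. Ccn1 (chr3:145649986-145650235, minus strand), the most widely used YAP target together with Ccn2, is given for comparison and held it once, at -103. Of 13 reported YAP and TAZ targets with a matched promoter, 5 (38.5%) held the motif upstream: Ccn1, Ankrd1, Axl, Crim1 and Ptpn14. Igfbp3, Foxf2 and Tgfb2 were among those without it, and no promoter was matched for Ccn2.
Ajuba: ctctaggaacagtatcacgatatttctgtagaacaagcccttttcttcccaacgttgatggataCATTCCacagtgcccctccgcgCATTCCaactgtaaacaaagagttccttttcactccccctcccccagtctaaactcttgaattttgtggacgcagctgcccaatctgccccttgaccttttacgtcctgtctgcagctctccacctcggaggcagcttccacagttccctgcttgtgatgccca
Ccn1: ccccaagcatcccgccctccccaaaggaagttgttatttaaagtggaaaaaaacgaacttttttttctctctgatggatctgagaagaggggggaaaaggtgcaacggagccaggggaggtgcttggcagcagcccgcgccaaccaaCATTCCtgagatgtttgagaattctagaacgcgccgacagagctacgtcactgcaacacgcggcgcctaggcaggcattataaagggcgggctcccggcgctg
At the other 2 members a window of 30 bases around the motif is given. Amotl2 (chr9:102717727-102717756, plus strand) held it at -65, in a stretch that GENCODE M21 annotates as part of a first exon. Tead3 (chr17:28350702-28350731, minus strand) held 2 copies 9 bases apart at 1 of its 3 start sites, in a window inside the M21 gene. Another of its start sites held 1 copy, at -182.
Amotl2: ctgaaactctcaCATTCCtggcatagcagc
Tead3: gccgggctCATTCCgtaCATTCCggccatc
A match is a description of the letters and does not show binding. No measurement of TEAD binding was part of these data.

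The libraries held 15718782 to 25371474 counts each. Levels are given as counts per 1000000 (CPM) on library sizes scaled with edgeR's TMM factors, and a gene without a count in a library can still be present at up to 3 counts, which came to 0.133 to 0.172 CPM. That limit covers counting error only. Across all genes the log2 CPM of the libraries correlated at 0.825 to 0.937 within a site and at 0.735 to 0.880 between sites. Mandible S23 stood apart from the other 5: the X-inactivation RNA Xist had 25189 counts there and 0 to 12 in each of the others, and 4 genes of the Y chromosome (Uty, Kdm5d, Eif2s3y and Ddx3y) were at 0 there. S23 also had the highest level of 8 of the 10 members, so results are given with and without it. Since the labels do not say whether libraries came from separate animals, p-values measure the spread between these libraries, which may be partly technical.

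The monocyte label was checked against 8 monocyte markers, among them Csf1r and Ly6c2. Their summed level was 6203 to 12457 CPM in the femur and 5673 to 9735 CPM in the mandible. Most of that sum was Lyz2, at 4630 to 10579 CPM in the femur and 4620 to 7816 CPM in the mandible. None of the 8 was called different, with 1 at an unadjusted p under 0.05 by edgeR (Cx3cr1) and 0 called by DESeq2 or limma-voom. Markers of other cells were not at the same level in both sites. The 12 mesenchymal and osteoblast markers summed to 162 to 195 CPM in the femur and to 7649, 9132 and 11863 CPM in mandible S16, S19 and S23, and 11 of 12 were called higher, all but Twist1. The 10 epithelial and ameloblast markers summed to 11.0 to 12.3 CPM in the femur and 5773 to 11304 CPM in the mandible, where Amelx, the main enamel matrix protein, had 60735, 76857 and 113109 counts against 2, 5 and 7. The 6 muscle markers summed to 8.44 to 25.8 CPM in the femur and 1089 to 3564 CPM in the mandible, with all 6 called higher. The 7 mural markers, of the cells around vessels, summed to 8.26 to 21.2 against 255 to 593 CPM, with 4 called higher (1 by limma-voom), and the 5 chondrocyte markers to 2.54 to 11.7 against 52.1 to 121 CPM, with 2 of the 4 tested called higher. Of the mural sum in the mandible, Des, which skeletal muscle also expresses, held 348, 142 and 417 CPM. The 8 endothelial markers were at 50.7 to 70.3 CPM in the femur and 39.5 to 64.2 CPM in the mandible, with 0 of 6 tested called by edgeR, 0 at an unadjusted p under 0.05 and 0 called by DESeq2 or limma-voom; Cldn5 was at 0 in all 3 femur libraries. The 6 Schwann cell markers were at 76.1 to 89.4 against 86.1 to 120 CPM. Of the 4 tested, 0 were called by edgeR or limma-voom, with 1 at an unadjusted p under 0.05 by edgeR, and DESeq2 called 1 higher. Without overlap between the sites, 1 of them was higher in the mandible and 1 lower. The 6 megakaryocyte markers were at 529 to 850 CPM in the femur and 72.0 to 104 CPM in the mandible, with 4 of 5 tested called lower. The part of these cells in the differences of the Hippo genes was not tested, and in bulk samples more cells of a type and more RNA per cell cannot be told apart.

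**Figure D1:**
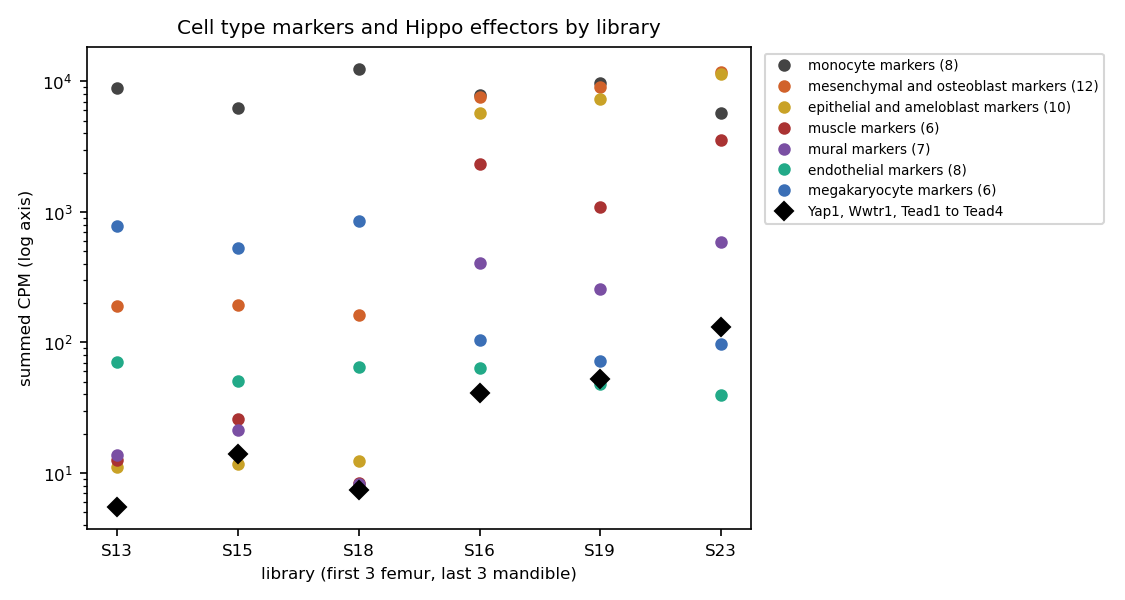
Summed CPM of each marker list on a log axis, 1 point per library. Monocyte marker sums, which are mostly Lyz2, overlap between the sites. Mesenchymal, epithelial and muscle markers are at 162 to 195, 11.0 to 12.3 and 8.44 to 25.8 CPM in the femur. In the mandible they are at 7649 or more, 5773 or more and 1089 or more.

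Wwtr1, Tead1, Ajuba and Amotl2 were higher in the mandible, by 7.55-fold, 18.3-fold, 10.04-fold and 3.54-fold, and passed the test (edgeR's quasi-likelihood test, Benjamini-Hochberg adjusted p under 0.05 and at least a 2-fold change). Yap1 was 5.504-fold higher and narrowly missed it, and Tead2, Tead3, Tead4, Lats1 and Lats2 did not pass. Thus 4 of 10 members were called higher and 0 lower, against 3.88% of all tested genes called higher, 1.3% called lower and 5.18% called in either direction. No member had a lower value with an unadjusted p under 0.05, and DESeq2 called 6 higher and 0 lower and limma-voom 2 higher and 0 lower. In 7 of the 10 every mandible library was above every femur library, which held for 12.7% of all tested genes, and 6 had an unadjusted p under 0.05, against 16.4%. The median log2 fold change was 2.16 over the members and -0.04 over all tested genes.

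Without mandible S23 or S19, or without femur S13, the members called were Tead1 and Wwtr1; without femur S18 Amotl2 was called too, and without femur S15 or mandible S16 Yap1 joined the 4. Without S23 the log2 fold changes were 1.72 for Yap1, 2.33 for Wwtr1, 3.32 for Tead1 and 2.53 for Ajuba, against 2.46, 2.92, 4.19 and 3.33 with it. Without femur S15 that of Tead1 was 4.80. The direction of Yap1, Wwtr1, Tead1, Tead3, Ajuba and Amotl2 was the same in each of these fits.

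**Figure D2:**
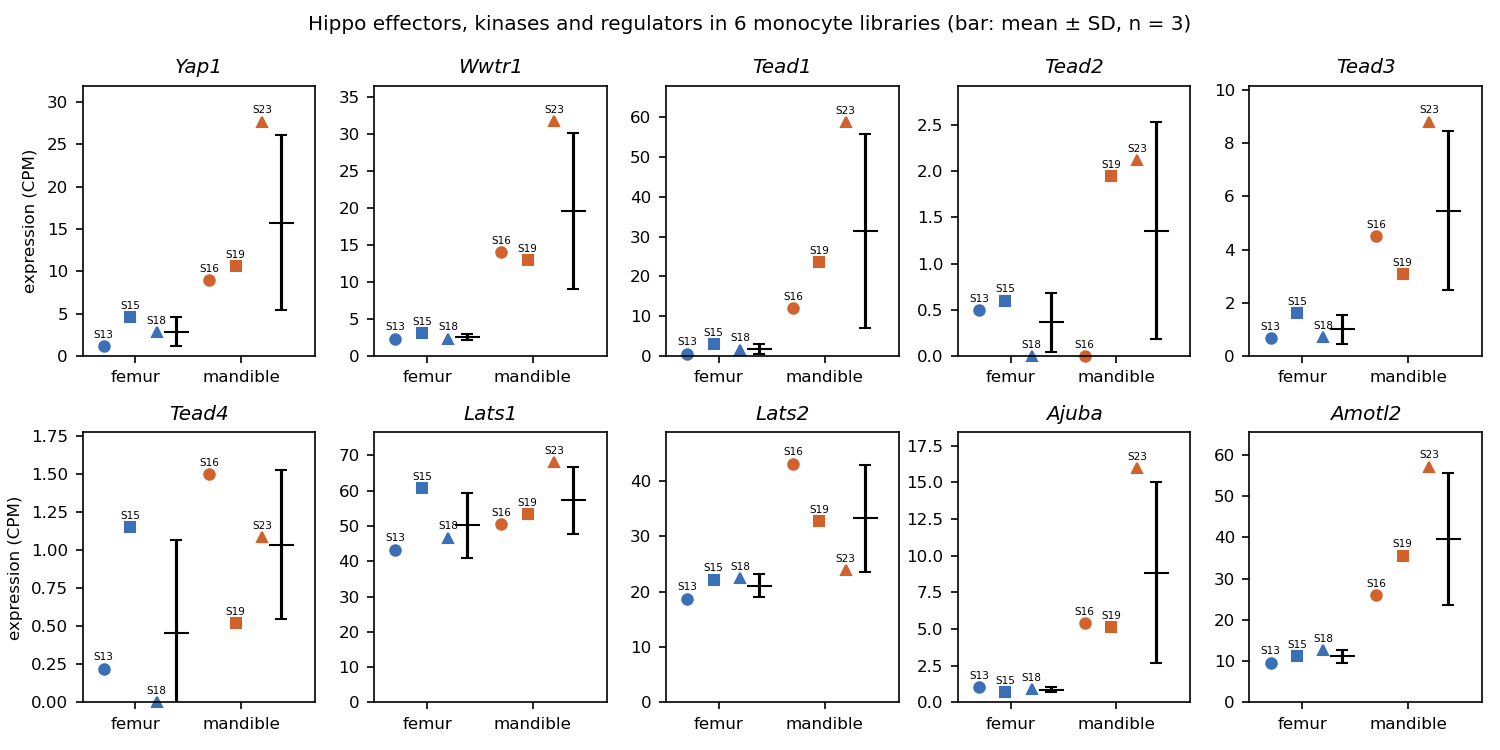
CPM of the 10 Hippo genes in each library, with points for libraries and bars for the mean and SD of the 3 libraries of a site; the lower end of the Tead4 femur bar is cut at 0. Mandible points lie above all femur points in 7 panels, and those of Lats1, Tead2 and Tead4 overlap.

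Wwtr1 (ENSMUSG00000027803, GRCm38 chromosome 3, 57455649 to 57575910, minus strand) encodes TAZ, the coactivator related to YAP. Its level was 2.32, 3.09 and 2.34 CPM in femur S13, S15 and S18 and 14.1, 12.9 and 31.7 CPM in mandible S16, S19 and S23. The femur libraries lay close together, every mandible library was above them, and S23 was the highest. The means were 2.58 ± 0.437 and 19.6 ± 10.5 CPM (SD, n = 3 each), and the log2 fold change was 2.92 (SE 0.50, 95% interval 1.81 to 4.02, edgeR adjusted p = 0.0060). It was called in each of the 8 other analyses and without any 1 library, at log2 fold changes of 2.33 to 3.11 in the latter.

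Yap1 (ENSMUSG00000053110, chromosome 9, 7931999 to 8004596, minus strand) had 21, 100 and 63 counts in the femur libraries and 179, 224 and 484 in the mandible libraries, or 1.16, 4.61 and 2.78 against 8.96, 10.6 and 27.7 CPM. The sites did not overlap, but the femur libraries spread more widely than for Wwtr1, with S13 the lowest and S15 the highest. The means were 2.85 ± 1.72 and 15.8 ± 10.4 CPM (SD, n = 3 each), with a log2 fold change of 2.46 (SE 0.65, 95% interval 1.04 to 3.88, edgeR unadjusted p = 0.0028, adjusted p = 0.053). DESeq2 called it (adjusted p = 0.0035), as did edgeR without femur S15 (0.028) or mandible S16 (0.048) and with every gene of at least 1 count in the fit (0.0012). By permutation of the libraries (exact, two-sided, on log2 CPM) p was 0.1 for Yap1, Wwtr1, Tead1, Tead3, Lats2, Ajuba and Amotl2, the smallest that 3 against 3 libraries allow.

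The ratio of Wwtr1 to Yap1 within a library was computed per length (RPKM, counts per kilobase of the gene length in the table and per 1000000 counts). It was 3.87, 1.30 and 1.63 in the femur and 3.04, 2.35 and 2.22 in the mandible. Per length, TAZ messenger RNA was thus above that of YAP in all 6 libraries. This order depends on the gene lengths used. In CPM, Wwtr1 was below Yap1 in femur S15 (3.09 against 4.61) and S18 (2.34 against 2.78). The log2 ratios overlapped between sites, with a difference of 0.32 (exact two-sided permutation test, p = 0.5), and without femur S15 the difference was -0.000121.

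Tead1 (ENSMUSG00000055320, chromosome 7, 112679318 to 112906807, plus strand) had the largest fold change of the 10. It was at 0.608, 2.95 and 1.55 CPM in the femur and 12.01, 23.5 and 58.8 CPM in the mandible. Every mandible library was at least 4 times the highest femur library, and the 3 mandible libraries differed widely from each other. The means were 1.701 ± 1.18 and 31.5 ± 24.4 CPM (SD, n = 3 each), with a log2 fold change of 4.19 (SE 0.71, 95% interval 2.64 to 5.75, edgeR adjusted p = 0.0053). It was called without any 1 library, at 3.32 to 4.80, and in 7 of 8 other analyses, limma-voom giving an adjusted p of 0.050.

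Tead3 (ENSMUSG00000002249, chromosome 17, 28331671 to 28350817, minus strand) was at 0.663, 1.61 and 0.707 CPM in the femur and 4.50, 3.09 and 8.81 CPM in the mandible, again without overlap. Its log2 fold change of 2.45 did not pass (SE 0.85, 95% interval 0.57 to 4.33, edgeR adjusted p = 0.15), and only DESeq2 among the other analyses called it (adjusted p = 0.035).

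Tead2 and Tead4 were near the lowest level that could be counted. Tead2 (ENSMUSG00000030796, chromosome 7, 45215753 to 45233644, plus strand) had 9, 13 and 0 counts in the femur and 0, 41 and 37 in the mandible, and Tead4 (ENSMUSG00000030353, chromosome 6, 128224288 to 128300823, minus strand) had 4, 25 and 0 against 30, 11 and 19. Both sites held libraries at or near 0 for Tead2, and for Tead4 femur S15 was above 2 mandible libraries. The log2 fold changes were 1.88 (95% interval -2.41 to 6.16) and 1.17 (-2.66 to 4.997), with edgeR adjusted p-values of 0.75 and 0.85, so a difference was not detectable at this depth. Tead2 overlaps the leukocyte gene Cd37 (775 to 1628 counts) on the opposite strand, only at its end, from 45233632 to 45233644. How the counting used the strand is not given in the sources used here.

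Of the summed RPKM of the 4 TEAD genes, Tead1 made up 14.5%, 24.1% and 52.0% in the femur and 44.9%, 63.2% and 67.8% in the mandible. The share in femur S18 was above that in mandible S16, so the sites overlapped. It was the largest share in each mandible library, followed by Tead3 at 34.0%, 16.7% and 20.5%. The femur shares rest on few reads, since Tead1 had 11, 64 and 35 counts there.

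The kinases had a different range from the effectors. Lats1 (ENSMUSG00000040021, chromosome 10, 7681214 to 7716460, plus strand) had 784 to 1318 counts in every library, at 43.3, 60.7 and 46.7 CPM in the femur and 50.4, 53.3 and 68.2 CPM in the mandible. The sites overlapped, with means of 50.2 ± 9.24 and 57.3 ± 9.53 CPM (SD, n = 3 each). Its fold change was 1.14 with a 95% interval of 0.768 to 1.69 (edgeR adjusted p = 0.82), which leaves out a 2-fold change in either direction. The log2 fold change was 0.19, and it was -0.22 with a correction for gene length and -0.01 without mandible S23, so no direction is given.

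Lats2 (ENSMUSG00000021959, chromosome 14, 57689662 to 57758388, minus strand) was at 18.7, 22.2 and 22.4 CPM in the femur and 43.1, 32.7 and 23.9 CPM in the mandible. The sites did not overlap, but S23, the highest mandible library for the effectors, was here the lowest and lay next to the femur. The means were 21.1 ± 2.08 and 33.3 ± 9.62 CPM (SD, n = 3 each) and the fold change 1.57 with a 95% interval of 0.978 to 2.53 (edgeR adjusted p = 0.33). The annotation has a second gene, Gm49361, on the same strand over most of Lats2, with 0 counts in all 6 libraries, and reads in exons that they share may be missing from Lats2.

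The ratio of Lats2 to Lats1 by RPKM was 0.453, 0.383 and 0.504 in the femur and 0.895, 0.643 and 0.367 in the mandible. S23 had the lowest ratio of all 6 libraries and S16 the highest. The difference of the log2 ratios was 0.43 (exact two-sided permutation test, p = 0.4).

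Set against each other per length, the effectors and kinases were closer together in the mandible. The summed RPKM of Yap1, Wwtr1 and the 4 TEAD genes was 0.919, 2.05 and 1.0098 in the femur and 5.88, 6.60 and 16.01 in the mandible, and that of Lats1 and Lats2 was 8.62, 11.5 and 9.61 against 13.1, 11.99 and 12.8. The effector sums were thus 0.107, 0.178 and 0.105 of the kinase sums in the femur and 0.449, 0.550 and 1.25 in the mandible. The mean log2 ratio was -2.99 ± 0.432 in the femur and -0.56 ± 0.784 in the mandible (SD, n = 3 each), a difference of 2.43, and S23 was the only library in which effectors exceeded kinases. This ratio over members was not tested. Beside it, the S23 to S16 ratio of summed CPM was 2.58 for the coactivators and 3.93 for the TEAD genes, 1.55, 1.96 and 1.52 for the mesenchymal, epithelial and muscle markers and 2.03 and 1.46 for the chondrocyte and mural markers. Col1a1 and Col1a2 weigh most in the mesenchymal sum and Des in the mural sum, and single markers spread around them. From S16 to S23, Alpl went from 26.3 to 126 CPM and Twist1 from 2.05 to 10.3. Acta2 went from 6.86 to 38.7 and Myh11 from 13.3 to 84.4 CPM. Each of these is a larger ratio than that of the TEAD sum. Every other marker of the mesenchymal and mural lists rose by a smaller ratio than the TEAD sum or fell. Among them, Ibsp went from 189 to 199 CPM, Col1a1 from 4738 to 7038 and Lum from 33.4 to 83.1. Bglap, Rgs5 and Cspg4 were lower in S23 than in S16.

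**Figure D3:**
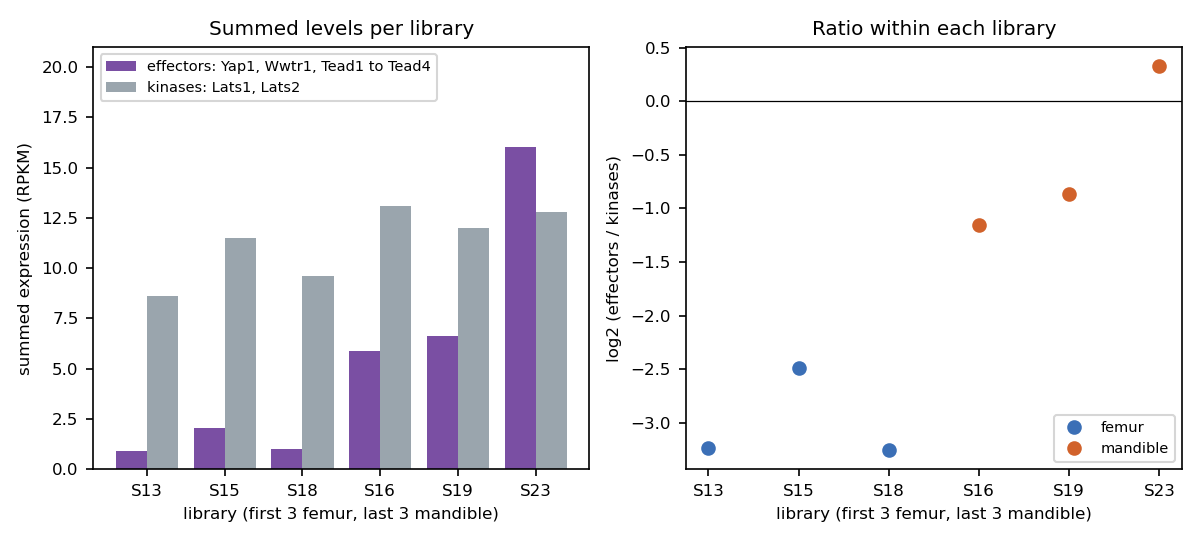
Summed RPKM of the effectors (Yap1, Wwtr1 and Tead1 to Tead4) and of the kinases (Lats1 and Lats2) in each library. Kinase sums lie between 8.62 and 13.1 in all 6 libraries, whereas effector sums run from 0.919 to 2.05 in the femur and from 5.88 to 16.01 in the mandible.

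Ajuba and Amotl2 act on the 2 sides of this step: AJUBA is a LIM domain protein that binds and inhibits LATS kinases, and angiomotin-like 2 is a junction protein that binds YAP and TAZ and holds them outside the nucleus. Ajuba (ENSMUSG00000022178, chromosome 14, 54567472 to 54577558, minus strand), whose promoter with 2 motifs is printed above, was at 1.05, 0.691 and 0.884 CPM in the femur and 5.40, 5.13 and 15.96 CPM in the mandible. The femur libraries and mandible S16 and S19 were each close together, and S23 was about 3 times S16. The log2 fold change was 3.33 (SE 0.74, 95% interval 1.697 to 4.96, edgeR adjusted p = 0.024). It was called in 7 of 8 other analyses, with an adjusted p of 0.12 by limma-voom, but in 2 of 6 fits that left out a library.

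Amotl2 (ENSMUSG00000032531, chromosome 9, 102716672 to 102733418, plus strand) was at 9.67, 11.2 and 12.7 CPM in the femur and 26.1, 35.6 and 57.1 CPM in the mandible. The lowest mandible library was more than 2 times the highest femur library. The means were 11.2 ± 1.51 and 39.6 ± 15.9 CPM (SD, n = 3 each), with a log2 fold change of 1.82 (SE 0.36, 95% interval 1.04 to 2.61, edgeR adjusted p = 0.012). All 8 other analyses called it, and 3 of 6 fits that left out a library.

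**Figure D4:**
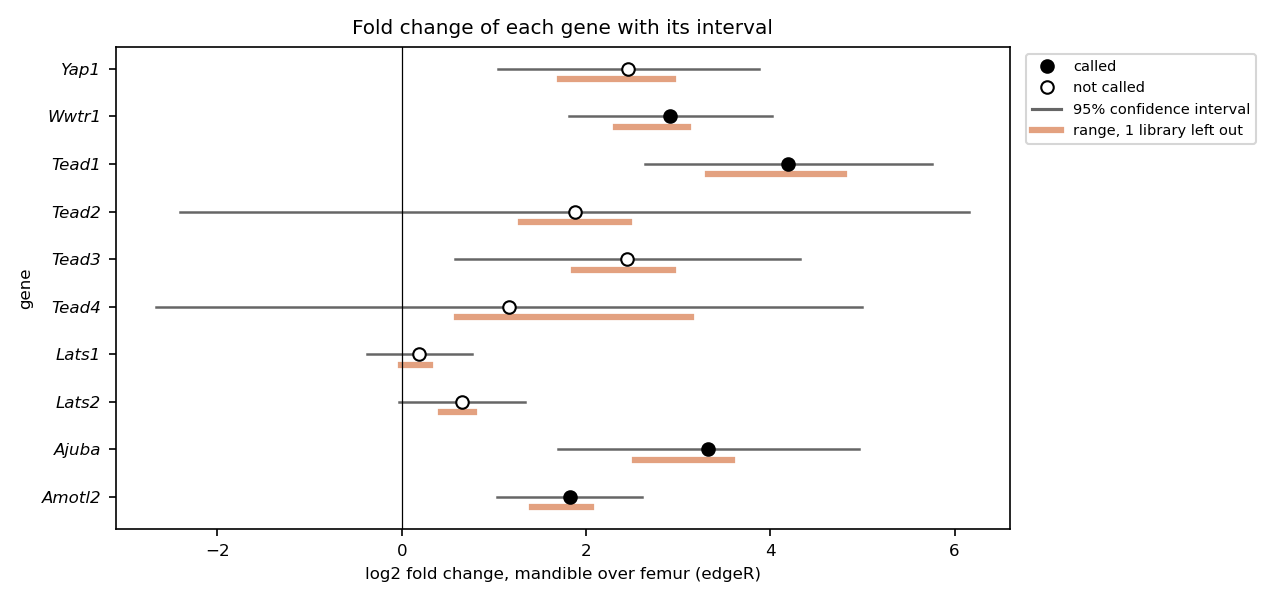
Log2 fold change of each Hippo gene, mandible against femur, with its 95% interval from edgeR. Tead1 is the highest at 4.19 and Lats1 the lowest at 0.19, and the intervals of Tead2 and Tead4 run from -2.41 and -2.66 to 6.16 and 4.997.

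Per length, the order in the femur was led by Lats1 at a mean of 6.88 RPKM, then Lats2 at 3.03, Amotl2 at 1.78 and Wwtr1 at 0.540, and the libraries of neighbours did not overlap down to this point. Yap1 (0.308), Ajuba (0.240), Tead3 (0.148), Tead4 (0.127), Tead1 (0.1253) and Tead2 (0.0763) followed, each overlapping the next, and Yap1 overlapped Wwtr1. In the mandible the means were 7.85 RPKM for Lats1, 6.30 for Amotl2, 4.77 for Lats2, 4.09 for Wwtr1, 2.42 for Ajuba, 2.32 for Tead1, 1.702 for Yap1 and 0.814 for Tead3, with every neighbour overlapping the next. Tead4 (0.288) and Tead2 (0.283) lay below all of these. Tead1 thus stood among the lowest members in the femur and in the middle of them in the mandible, and 5.90% of tested genes had a lower mean RPKM than Tead1 in the femur and 40.3% in the mandible. For Wwtr1 these shares were 19.4% and 54.0%, and for Lats1 65.8% and 70.1%.

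Of 40 other genes of the pathway, 37 were tested and 8 (21.6% of them) were called higher in the mandible and 0 lower, where 3.88% and 1.3% of all tested genes were. DESeq2 called 9 higher and limma-voom 6, and 6 were higher without femur S13 or S18 or mandible S23. Mob1b and Ywhaq had a lower value at an unadjusted p under 0.05 by edgeR, and 0 were called lower by DESeq2 or limma-voom, while Ywhaq was called lower without femur S15 and Mob1b with the length correction. Their median log2 fold change was 0.27.

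The rest of the kinase cassette, which holds the MST kinases Stk3 and Stk4 and their partners Sav1, Mob1a and Mob1b, had 0 of 7 genes called by edgeR, with 1 at an unadjusted p under 0.05 and 0 called by DESeq2 or limma-voom. Its summed level was 751 to 911 CPM in the femur and 622 to 969 CPM in the mandible, and the median log2 fold change was -0.01. For lists this short, the 5.18% of all tested genes that were called in either direction amounts to less than 1 gene. Of 9 upstream activators 0 were called by edgeR, with 3 at an unadjusted p under 0.05 (Wwc1, Frmd6 and Map4k4), and DESeq2 called Frmd6 and limma-voom none. Map4k4, a kinase that can act on LATS in parallel to MST, was at 186, 361 and 225 CPM in the femur and 602, 385 and 361 CPM in the mandible (log2 fold change 0.81, edgeR adjusted p = 0.26). The 6 genes of YAP retention and turnover, such as the 14-3-3 proteins that bind phosphorylated YAP, had 0 called by edgeR, 1 at an unadjusted p under 0.05 and 0 called by DESeq2 or limma-voom. The 14-3-3 genes Ywhae (505 ± 187 and 502 ± 193 CPM) and Ywhaz (425 ± 124 and 422 ± 116 CPM, SD, n = 3 each) had nearly equal means in the 2 sites.

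All 3 giant cadherins on the list of other pathway genes (Fat1, Fat4 and Dchs1), which signal between neighbouring cells, were higher in the mandible. Fat1 was at 13.9, 17.7 and 14.7 CPM in the femur and 95.1, 150 and 245 CPM in the mandible (log2 fold change 3.41, SE 0.37, edgeR adjusted p = 0.00035). Fat4 was at 1.27, 5.71 and 1.68 against 45.1, 87.5 and 201 CPM (5.26, SE 0.70, edgeR adjusted p = 0.0012). Dchs1, the ligand of FAT4, had 3, 48 and 0 counts in the femur and 603, 1194 and 1390 in the mandible (6.10, SE 1.03, edgeR adjusted p = 0.0053). Without femur S15, which held nearly all femur counts of Dchs1, its log2 fold change was 9.38, and that of Fat4 was 6.18; without mandible S23 that of Fat4 was 4.46. None of the 3 overlapped between sites, and S23 was the highest for each, as for Tead1.

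Amot and Amotl1, the 2 relatives of Amotl2, were called higher as well, Amotl1 without any 1 library and Amot in 3 of 6 such fits (not without femur S13 or S18 or mandible S23, edgeR adjusted p up to 0.080). Amotl1 was at 2.60, 5.90 and 2.16 CPM in the femur and 60.5, 73.9 and 176 CPM in the mandible (log2 fold change 4.86, SE 0.54, edgeR adjusted p = 0.00039; 4.18 without S23). Limd1, a LIM protein related to AJUBA, was at 76.9 to 121 CPM in the femur and 83.9 to 128 CPM in the mandible (log2 fold change 0.19, edgeR adjusted p = 0.84). Among polarity genes Pard3 (3.17, SE 0.57, edgeR adjusted p = 0.0072) and Patj (1.89, SE 0.48, edgeR adjusted p = 0.044) were called and the other 4 tested were not. Pard3 was at 2.46 without S23 and still called, whereas Patj was called in 4 of 8 other analyses and in 2 of 6 fits that left out a library, with edgeR adjusted p up to 0.23. Vgll2, a cofactor that binds TEAD proteins in muscle, had 0, 1 and 0 counts in the femur and 154, 47 and 96 in the mandible (edgeR adjusted p = 0.0074). Its fitted fold rests on 1 femur count and is not given.

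Of 20 reported targets of YAP and TAZ, 18 were tested and 8 were called higher in the mandible (44.4% of those tested, against 3.88% of all tested genes), and 0 lower. DESeq2 called 10 higher and limma-voom 6, the latter without Ccn1, Foxf2 and Tgfb2 (adjusted p of 0.094, 0.096 and 0.22). There were none lower at an unadjusted p under 0.05 and none called lower by DESeq2 or limma-voom. The median log2 fold change was 1.79, and 12 of 18 did not overlap between sites, with the mandible higher, as did 12.7% of all tested genes. The count was 4 without mandible S23 or S19, 5 without femur S18 and 9 without femur S15 or mandible S16; Igfbp3, Foxf2, Ptpn14 and Ccdc80 were the 4. The mesenchymal marker sums given above were also higher in the mandible, and their part in the targets was not tested.

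Igfbp3, an IGF-binding protein, was at 1.44, 2.21 and 1.68 CPM in the femur and 60.4, 80.9 and 192 CPM in the mandible (log2 fold change 5.96, SE 0.50, edgeR adjusted p = 6.2e-05). Ccn1 (Cyr61), the matricellular protein whose promoter is printed above, had 22, 3 and 0 counts in the femur and 200, 459 and 809 in the mandible (5.89, SE 1.09, edgeR adjusted p = 0.0088). Its companion Ccn2 (Ctgf) was at 6.68, 5.53 and 5.70 CPM in the femur and 14.9, 27.0 and 31.2 CPM in the mandible (2.03, SE 0.40, edgeR adjusted p = 0.013). For both CCN genes the sites did not overlap. The fold of Ccn1 rests on few femur counts: leaving out femur S13 gave 8.46 and leaving out femur S18 gave 5.28. Leaving out mandible S23 gave 5.12, and the call was lost there and without S19 (edgeR adjusted p up to 0.054). Ccn2 was called in 3 of 6 fits that left out a library. Igfbp3 was at 5.25 without S23 and was called in all 6.

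Foxf2, a mesenchymal transcription factor, had 0, 1 and 8 counts in the femur and 109, 306 and 438 in the mandible (log2 fold change 6.69, SE 1.05, edgeR adjusted p = 0.0036), and Tgfb2 had 3, 42 and 4 against 63, 354 and 711 (4.71, SE 1.1002, edgeR adjusted p = 0.030). Foxf2 was called without any 1 library, at 8.92 without femur S18 and 6.07 without S23. Tgfb2 lost its call without femur S13 or S18 or mandible S19 or S23 (edgeR adjusted p up to 0.16), and its log2 fold change ran from 3.64 without S23 to 6.79 without femur S15. Ptpn14, a phosphatase that binds YAP, rose by 3.69 (SE 0.66, edgeR adjusted p = 0.0073; 4.57 without femur S15) and Ccdc80, a secreted matrix protein, by 3.52 (SE 0.44, edgeR adjusted p = 0.00082) on the log2 scale. Asap1 and Dock5, the targets with the highest mean CPM, did not pass. Asap1 was at 166 to 207 CPM in the femur and 186 to 286 CPM in the mandible (log2 fold change 0.31, edgeR adjusted p = 0.68) and Dock5 at 113 to 140 and 94.5 to 146 CPM (0.02, edgeR adjusted p = 0.98). Axl, a receptor tyrosine kinase, did not pass either, at 12.1 to 36.1 and 41.4 to 65.1 CPM (1.17, edgeR adjusted p = 0.14). Ankrd1, a common reporter of YAP activity, had 0, 31 and 4 counts in the femur and 0, 18 and 0 in the mandible and was not tested.

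**Figure D5:**
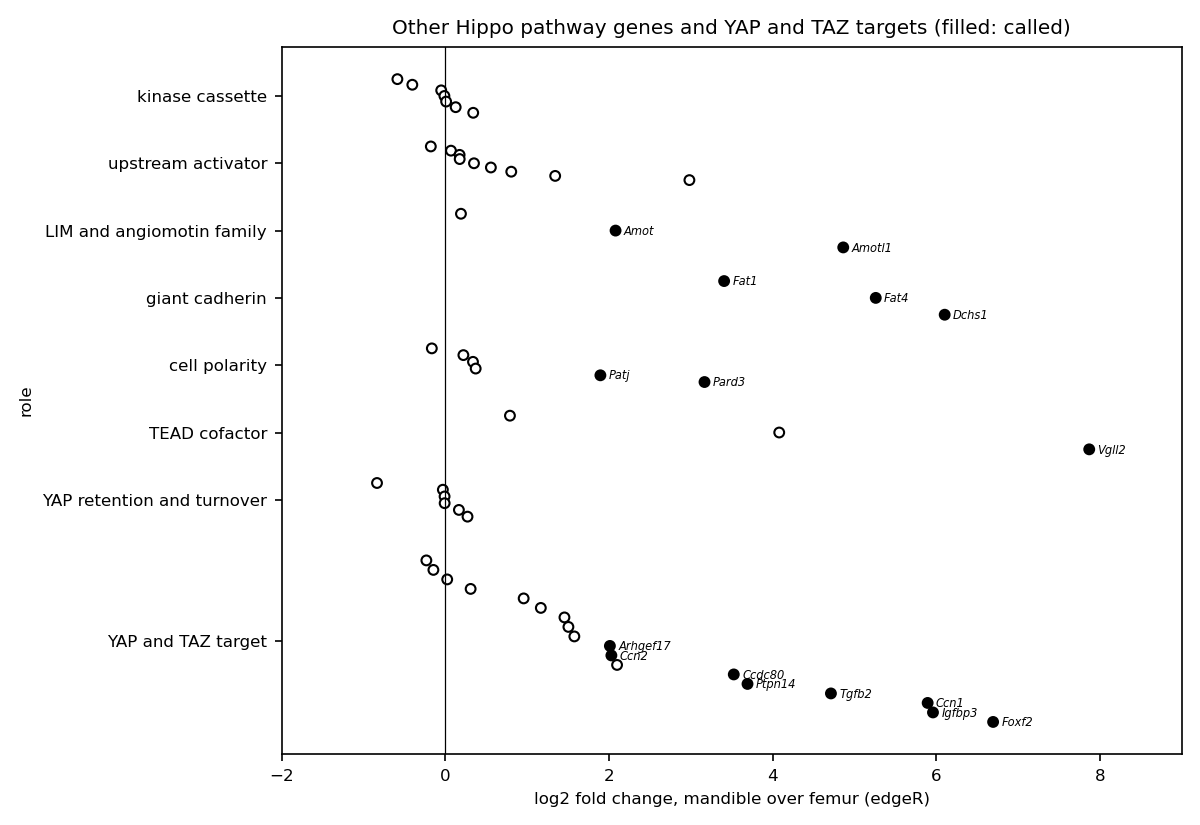
Log2 fold change, mandible against femur, of the other pathway genes by role and of the reported YAP and TAZ targets, 1 point per tested gene, with called genes marked. The 3 listed giant cadherins lie at 3.41 to 6.10, the kinase cassette has a median of -0.01, and 8 of 18 targets are called.

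Over the 6 libraries, Yap1 varied together with Tead1 (Pearson's r of log2 CPM 0.985), Tead3 (0.959), Amotl2 (0.941) and Wwtr1 (0.938), and less with Ajuba (0.877), Lats1 (0.815), Tead4 (0.625), Lats2 (0.524) and Tead2 (0.435). Outside the lists, the tested genes most like Yap1 were Obsl1 (0.999), Exoc6b (0.997), Efs (0.996), Ccdc102a (0.994) and Pcdhgb7 (0.993), of which the last shares exons with its gene cluster. Those most like Wwtr1 were Cthrc1 (0.998), Flrt1 (0.997), Zbtb20, Dlc1 and Pdk2 (0.995 to 0.996). These values are descriptions over 6 libraries that fall into 2 sites, and that share their depth with every other gene of a library. Exoc6b had 13.1 to 23.04 CPM in the femur and 33.8 to 58.9 CPM in the mandible, and Dlc1 4.25 to 5.44 against 15.4 to 30.9 CPM, in the same order of sites as the 2 coactivators.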

How the data were processed

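RNA of 3 femur-derived and 3 mandibular-derived monocyte libraries was analysed. Per the study's methods, reads from both ends of a fragment were trimmed (Trimmomatic) and aligned to GRCm38 (Hisat2 2.1.0), and featureCounts gave the raw counts per gene that the authors deposited. The use of strand and of reads with several positions is not given in the sources used here. Of 52029 genes shared with GENCODE M21, only 2979 had deposited coordinates that lie within the M21 gene, and the positions given are therefore those of M21 (GRCm38), matched by Ensembl identifier.

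The quasi-likelihood test of edgeR 4.0.16 (R 4.3.3) was run without covariates on TMM-scaled counts that passed filterByExpr (min.count 10, min.total.count 15), with prior count 0.125. A call needed an adjusted p (Benjamini-Hochberg, over all 18114 tested genes) under 0.05 together with a fold of at least 2. CPM and RPKM, the latter with the gene length given in the table, were computed from the counts. The exact permutation test of single genes used log2(CPM + 0.5), and that of the 2 ratios used log2 ratios of RPKM with nothing added. The code of the fit was checked on simulated counts with a 4-fold change in 200 genes. The simulation gave every gene the same spread setting, so it does not show how the fit behaves at the spread of these libraries. The alternatives were DESeq2 1.42.0, limma-voom (limma 3.58.1), RLE factors, no factors, TMM without mitochondrial, hemoglobin, immunoglobulin and Rn18s rows, 2 other filters, a loess correction for gene length (span 0.4) and each library left out. The members, lists, marker genes and tests were chosen with earlier results of these data known. Beside the members, the genes named were the 3 of each list with the highest mean CPM, up to 6 called with the largest fold change, and the 5 most like Yap1 or Wwtr1. Amot, Patj, Limd1, Ccn2, Axl, Ankrd1, Mob1b, Ywhaq, Wwc1 and Frmd6 stand outside this rule and, like the single markers set beside the effector ratio, were chosen after their values were seen.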

Additional observations from a re-analysis of the deposited data

How the results depend on the processing

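The count of all called genes was 938, and it was 1547 with DESeq2, 1590 with every gene of at least 1 count and 434 to 1565 when 1 library was left out (1565 without femur S15). Of the members 4 were called, 2 with limma-voom and 2 to 5 when 1 library was left out; of the targets 8 were called, and 4 to 9 when 1 library was left out; of the other pathway genes 8 were called, 6 with limma-voom and 6 to 9 when 1 library was left out. Over the members' fold changes, 121 of the values under other settings kept direction and side of the threshold, 9 were no longer past it, 5 were newly past it and 2 changed sign, both of Lats1: -0.22 with the length correction, and -0.0091 without mandible S23 in a range of -0.0091 to 0.31. The length correction moved the median log2 fold change of all genes from -0.04 to -0.18. The Wwtr1 to Yap1 difference ran from -0.000121 (without femur S15) to 0.79, that of Lats2 to Lats1 from 0.13 to 0.77, and that of effectors to kinases from 1.98 (without mandible S23) to 2.72. Genes near 0 changed sign: Asap1 was at -0.11 with the length correction, and Dock5 at -0.025 with every gene, -0.024 with a mean CPM of at least 1, -0.64 with the length correction and -0.11 to 0.14 with 1 library left out. Ywhae was at 0.0080 with DESeq2 and RLE factors, 0.11 with no factors, 0.052 with the length correction and -0.33 to 0.23 with 1 library left out, and Ywhaz at 0.017 with DESeq2 and RLE factors, 0.13 with no factors and -0.30 to 0.23 with 1 library left out. The causes were not tested. Fits that left out a library had 2 libraries in 1 site. At 0 to 41 counts, as for Tead2 and Tead4, depth limits what can be seen. No paired analysis was possible because the 2 sites share no replicate numbers.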
